A study of Homo sapiens with 4 samples.

Results

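The genes described here encode matrix metalloproteinases (MMPs) and tissue inhibitors of metalloproteinases (TIMPs), the proteases that cut the extracellular matrix and the proteins that block them. A list of 10 genes (MMP1, MMP2, MMP3, MMP7, MMP9, MMP11, MMP13, MMP14, TIMP1 and TIMP2) was matched to the gene name of each spot on a printed cancer array. The array named 6 of the 10: MMP2, MMP3, MMP11, MMP14, TIMP1 and TIMP2. MMP1, MMP7, MMP9 and MMP13 were the name of no spot and have no value here. Each of the 6 genes had 1 probe printed at 2 spots, which gave 12 of 3786 gene spots and 6 of 1856 gene probes.

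The cells were MDA-MB-231, an established human breast cancer line derived from a triple-negative adenocarcinoma, so every value describes 1 line. Untreated cells, in RPMI with 10% FBS and L-glutamine, were compared with cells in that medium with 100 ng/mL recombinant human LRG1 (rhLRG1), a secreted leucine-rich glycoprotein, for 24 h. There were 2 samples in each group, replicates 2 and 3, and the untreated and the rhLRG1 sample of a number shared 1 two-colour array. The numbers were taken from the sample titles, because the description of rhLRG1 replicate 3 repeats that of rhLRG1 replicate 2. Untreated cDNA always carried ALEXA 555 and rhLRG1 cDNA always carried ALEXA 647, so an effect of the dye and an effect of treatment cannot be told apart for any ratio below.

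MMPs are zinc-dependent endopeptidases made as inactive zymogens and switched on by removal of a propeptide. TIMPs bind the active site of the mature enzymes and stop them, so the level of protease against inhibitor bears on how much matrix a tumour cell can cut. The members act in linked ways: MMP14, held in the cell membrane, uses TIMP2 as a bridge to capture the MMP2 zymogen and activate it, and MMP3 can activate other MMP zymogens. Transcripts were measured here, and neither protein, zymogen activation nor activity was.

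Promoter sequence was read for the members whose transcription start is listed in the RefSeq promoter table, to show which of the motifs long known from MMP and TIMP genes stand beside each start. The table held 3 of the 6 members (MMP11, MMP14 and TIMP1). The 250 bases before each start are given 5′ to 3′ on the plus strand, on which all 3 genes lie, from RefSeq on GRCh38.p14. Capitals mark GC boxes (GGGCGG or its complement CCGCCC), the PEA3 core (AGGAAG) and the AP-1-like element TGAGTAA.
MMP11, chr22:23772599-23772848: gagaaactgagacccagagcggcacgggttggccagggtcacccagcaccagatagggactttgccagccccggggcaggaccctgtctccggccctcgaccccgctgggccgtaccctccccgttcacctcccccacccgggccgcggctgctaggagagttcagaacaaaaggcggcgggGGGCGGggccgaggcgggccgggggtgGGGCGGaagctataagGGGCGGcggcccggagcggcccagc
MMP14, chr14:22836335-22836584: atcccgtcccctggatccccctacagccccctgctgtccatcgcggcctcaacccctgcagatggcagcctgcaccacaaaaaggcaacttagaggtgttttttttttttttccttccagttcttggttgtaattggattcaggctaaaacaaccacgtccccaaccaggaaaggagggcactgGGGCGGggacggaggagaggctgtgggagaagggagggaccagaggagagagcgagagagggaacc
TIMP1, chrX:47582186-47582435: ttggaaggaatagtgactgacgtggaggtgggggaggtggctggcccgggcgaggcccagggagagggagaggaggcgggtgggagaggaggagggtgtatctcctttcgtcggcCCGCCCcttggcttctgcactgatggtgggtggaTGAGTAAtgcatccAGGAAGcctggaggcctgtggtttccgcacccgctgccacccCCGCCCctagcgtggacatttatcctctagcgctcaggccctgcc

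The MMP11 window held 3 GC boxes, at 68, 41 and 25 bases before the start, and 73.2% of its bases were G or C. The MMP14 window held 1 GC box at 66 bases and was 56.8% G or C. TIMP1 had GC boxes at 135 and 45 bases, the AP-1-like element at 101 bases and the PEA3 core at 87 bases. TGAGTAA was searched as the form known from TIMP1, so its match in that window was fixed in advance. The full AP-1 motif TGANTCA and the TATA motif TATAAA matched none of the 3 windows on either strand, and no marked motif overlapped another. In all 35116 windows of this length in the table, GGGCGG occurred in 42.6%, AGGAAG in 28.7%, TATAAA in 10.7%, TGANTCA in 6.57% and TGAGTAA in 2.21%. A match describes the letters only, and no factor binding was measured.

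All 6 members were lit on both arrays and in both channels. The spot foreground exceeded its local background plus 2 SD of that background in 48 of 48 spot values. So it did for 3785 of 3786 gene spots in untreated replicate 2 and 3781 in untreated replicate 3. In rhLRG1 replicates 2 and 3 it did for 3768 and 3758, so nearly every spot passed this rule. Foreground over background of the members ran from 1.44 to 19.5 in the rhLRG1 channel and from 3.88 to 37.1 in the untreated channel. Over all spots the rhLRG1 channel was also the dimmer one, with a median foreground of 397 and 319 against 508 and 425 in the untreated channel, and its local background was higher. Probes differ in how well they bind, so a brighter probe is not a more abundant transcript, and the probe sequences were not used here. Members with close relatives may therefore share signal, which applies first to MMP3 and its neighbour in the chromosome 11 cluster, MMP10.

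MMP2 (gelatinase A, chromosome 16) cuts type IV collagen of basement membrane. Its spots read 436 and 798 in untreated replicate 2, 622 and 854 in untreated replicate 3, 375 and 687 in rhLRG1 replicate 2, and 505 and 739 in rhLRG1 replicate 3. The second spot was the brighter in every sample, by 0.87 and 0.44 on the log2 scale in the untreated channel, and each treated reading was below the untreated reading of its own spot before dye normalization. After normalization, the log2 ratio of rhLRG1 over untreated was 0.16 and 0.066 on the spots of replicate 2 and 0.020 and 0.041 on those of replicate 3. All 4 spot ratios thus lay above 0, with a mean of 0.071 (SE 0.059, 1.05-fold) and an adjusted p of 0.509 in limma.

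MMP3 (stromelysin 1, chromosome 11), a broad protease of proteoglycans, laminin and fibronectin, had the brightest probe of the members in all 4 samples. The foreground was 1656 and 1073 in untreated replicate 2, 1043 and 833 in untreated replicate 3, 1425 and 846 in rhLRG1 replicate 2, and 765 and 573 in rhLRG1 replicate 3. Its log2 ratios were -0.017 and -0.095 on replicate 2 and -0.20 and -0.24 on replicate 3. All 4 were below 0, but the array means of -0.056 and -0.22 differed by more than the mean itself, which was -0.14 (SE 0.067, 0.909-fold, adjusted p = 0.289 in limma).

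MMP11 (stromelysin 3, chromosome 22), known from the stroma of breast carcinoma and weak on classical matrix substrates, read 503.8 and 358 in untreated replicate 2 and 443 and 309 in untreated replicate 3. With rhLRG1 it read 373 and 220 in replicate 2 and 319 and 223 in replicate 3. The spot ratios of -0.059, -0.23, -0.040 and 0.032 did not share a sign, and the second spot of replicate 3 was the one above 0. The mean was -0.075 (SE 0.064, adjusted p = 0.514 in limma), with nearly all of it from replicate 2 (-0.15) and almost none from replicate 3 (-0.0042).

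MMP14 (MT1-MMP, chromosome 14), the membrane-bound collagenase and activator of MMP2, had the dimmest probe of the members. It read 219 and 184 in untreated replicate 2, 193 and 197 in untreated replicate 3, 139 and 113 in rhLRG1 replicate 2, and 119 and 102 in rhLRG1 replicate 3. The treated readings were only 1.44 to 1.96 times the local background, against 3.90 to 5.05 times for the untreated ones, so the background correction weighs most on this gene. Its spot ratios were -0.092 and -0.17 on replicate 2 and -0.0092 and -0.092 on replicate 3, all below 0, with a mean of -0.090 (SE 0.059, 0.939-fold, adjusted p = 0.404 in limma). The mean was -0.040 with print-tip loess and -0.37 where each array was only centred on its median, below 0 in both but far apart.

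TIMP1 (chromosome X), a secreted inhibitor of most soluble MMPs that also promotes growth and survival in several cell types, read 404 and 241 in untreated replicate 2 and 293 and 190 in untreated replicate 3. With rhLRG1 it read 365 and 189 in replicate 2 and 219 and 123 in replicate 3. The log2 ratio was 0.24 and 0.20 on the spots of replicate 2 and 0.060 and 0.024 on those of replicate 3. All 4 were above 0, and spots of 1 array differed by 0.037 and 0.036 while the arrays differed from each other far more (0.22 against 0.042). The mean of 0.13 (SE 0.068, 1.09-fold, adjusted p = 0.315 in limma) lay above 0 after loess and at -0.0086 where each array was only centred on its median, so TIMP1 had no settled direction.

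TIMP2 (chromosome 17), inhibitor of MMP2 and partner of MMP14 in its activation, read 1153 and 1158 in untreated replicate 2 but 423 and 465 in untreated replicate 3. With rhLRG1 it read 1003 and 956 in replicate 2 and 375 and 427 in replicate 3. The replicates did not overlap in either channel, whereas the groups did. The log2 ratios of the spots were 0.040 and -0.034 on replicate 2 and 0.19 and 0.21 on replicate 3, so the mean of 0.10 (SE 0.071, 1.07-fold, adjusted p = 0.435 in limma) came almost wholly from replicate 3.

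**Figure D1:**
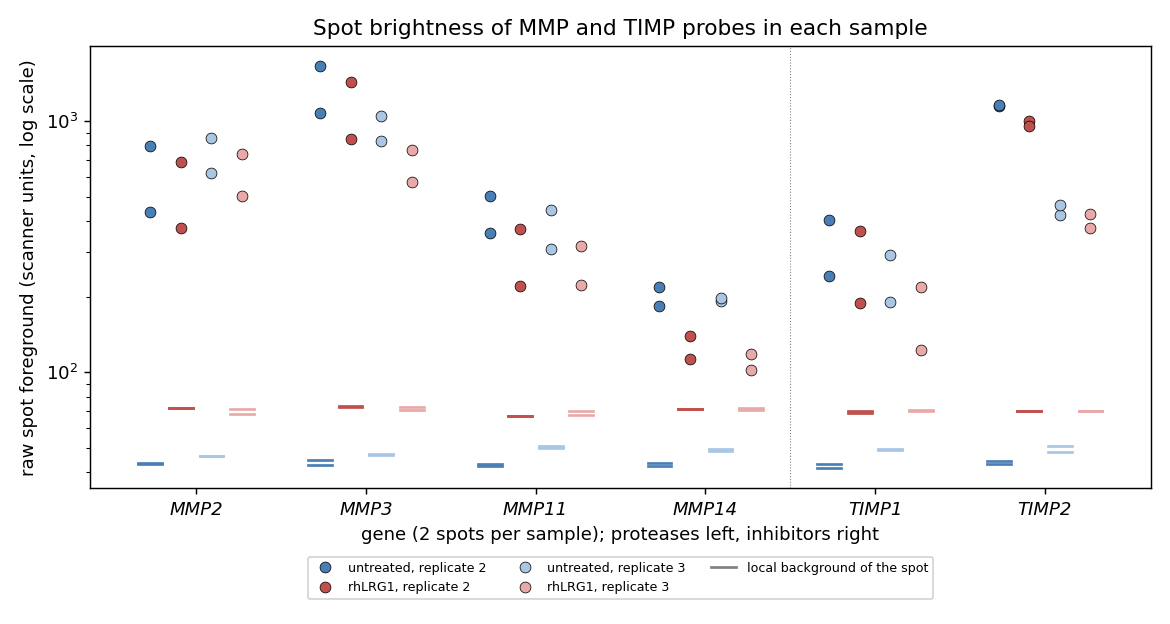
Foreground of each spot in scanner units (log axis) for the 6 members in the 4 samples, with 1 point per spot and short lines for the local background of each spot. MMP14 lies lowest, down to 102 in rhLRG1 replicate 3, and TIMP2 drops from at least 956 in replicate 2 to at most 465 in replicate 3 in both groups.

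Among all 1856 probes the members covered a wide span of brightness, ranked on the mean of their spots after subtraction of the local background. In untreated cells MMP14 stood at percentile 16.3 in replicate 2 and 19.5 in replicate 3, TIMP1 at 34.0 and 28.6, and MMP11 at 42.8 and 44.1. MMP2 stood at 54.8 and 67.6, TIMP2 at 72.8 and 50.8, and MMP3 at 77.0 and 74.2. The order of the outer members (MMP14 lowest, then TIMP1, and MMP3 highest) was shared by both untreated samples, while MMP2 and TIMP2 changed places. The rhLRG1 samples had the same order within each replicate, with MMP3 highest at 76.3 and 70.4 and MMP14 lowest.

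The study asked which transcripts change with rhLRG1, and called a gene by a Z ratio. Here that is the treated minus the untreated mean Z score of log10 brightness, divided by the SD of such differences over all probes. The brightness was background-corrected but not dye-normalized, and the limit was 1.5 in either direction. By this rule 0 of 6 members were called, where 13.4% of all gene probes were (248 of 1856), 6.73% higher and 6.63% lower with rhLRG1. The members' Z ratios ran from -0.975 for MMP14 to 0.867 for TIMP2. In limma, 0 of 6 members had an adjusted p under 0.05, as did 0 of all 1856 probes (0%, although 378 to 603 passed with other background corrections, without normalization or on net intensities), and at an unadjusted p under 0.05 the counts were 0 of 6 and 433 of 1856. With 1 array left in place of both, the Z ratio of MMP3 was -1.71 and that of TIMP2 was 1.63 on replicate 3, past the limit that 225 of 1856 probes passed there, and no member passed on replicate 2.

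The intervals use the variance of limma, which joins the spread of a probe between the arrays with a variance pooled over all probes. They therefore do not measure the spread of a single gene, and they leave out what a processing other than loess would change. The 95% intervals of limma for the fold of rhLRG1 over untreated ran from 0.809 to 1.02 for MMP3, from 0.847 to 1.04 for MMP14 and from 0.848 to 1.06 for MMP11. They ran from 0.947 to 1.17 for MMP2, from 0.972 to 1.23 for TIMP1 and from 0.948 to 1.21 for TIMP2. All 6 include 1, so neither a small rise nor a small fall was resolved for any member. The background correction added an offset of 50 units to each spot, which draws the ratios of dim probes such as MMP14 and TIMP1 towards 0. With 2 arrays an exact sign-flip test of a single gene cannot give a p below 0.5.

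**Figure D2:**
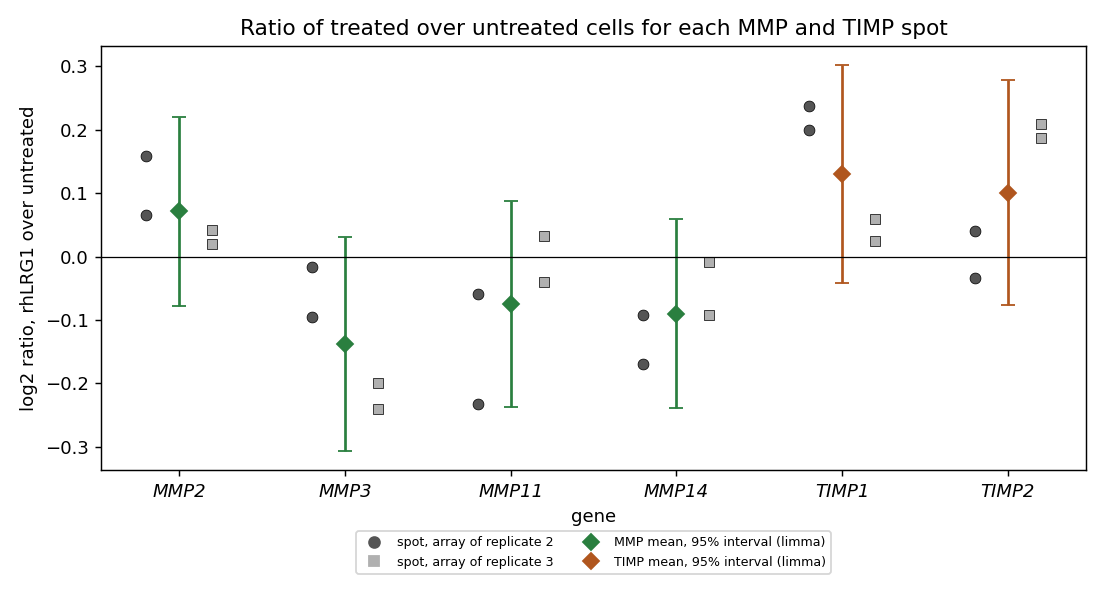
Log2 ratio of rhLRG1 over untreated for each spot on each array (small symbols) with the probe mean and its 95% limma interval (bars) for the 6 members. Every interval crosses 0, and the spots of 1 array lie closer together than the arrays do for MMP3, TIMP1 and TIMP2.

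The members split evenly by sign, with 3 above 0 (MMP2, TIMP1 and TIMP2) and 3 below (MMP3, MMP11 and MMP14), under loess. Their median log2 ratio was -0.0020, where that of all probes was -0.0061, and the median size of the ratio was 0.096 against 0.085. For 6 of 6 members the ratio had the same sign on both arrays, and so it had for 1397 of 1856 probes. TIMP2 on replicate 2 (0.0034) and MMP11 on replicate 3 (-0.0042) lay so near 0 that their spots differed in sign. The ratio of MMP3 was larger in size than that of 70.1% of all probes, the highest of the members, and MMP2 stood at 43.1%, the lowest.

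Set against each other, proteases had a lower mean ratio than inhibitors on both arrays. The 4 MMPs averaged -0.055 and the 2 TIMPs 0.11 on replicate 2, a difference of -0.17. On replicate 3 the averages were -0.061 and 0.12, a difference of -0.18. The mean difference was -0.17 (SD 0.011, n = 2 arrays), or an MMP to TIMP ratio of 0.887 times that of untreated cells. It lay between -0.26 and -0.12 in the 9 alternative settings that could change it and was below 0 in each. These settings were not independent checks. Leaving 1 array out returned the array values above, and median centring and no normalization had to give the same difference (-0.20). No p is given, since the members were chosen with earlier results of these data known, and the near-equal arrays hid unlike parts: TIMP1 carried the inhibitor side on replicate 2 (0.22, with TIMP2 at 0.0034), and TIMP2 carried it on replicate 3 (0.20, with TIMP1 at 0.042). On the protease side MMP11 and MMP14 were lowest on replicate 2 (-0.15 and -0.13) and MMP3 on replicate 3 (-0.22).

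Within the unit that activates MMP2, the mean ratios did not share a sign. MMP2 and TIMP2 had mean log2 ratios of 0.071 and 0.10 and MMP14 of -0.090, each with an interval that included 0. On replicate 2 the values were 0.11, 0.0034 and -0.13, and on replicate 3 they were 0.030, 0.20 and -0.051. A lower ratio in RNA of a whole culture cannot tell fewer cells with the transcript from less transcript per cell.

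**Figure D3:**
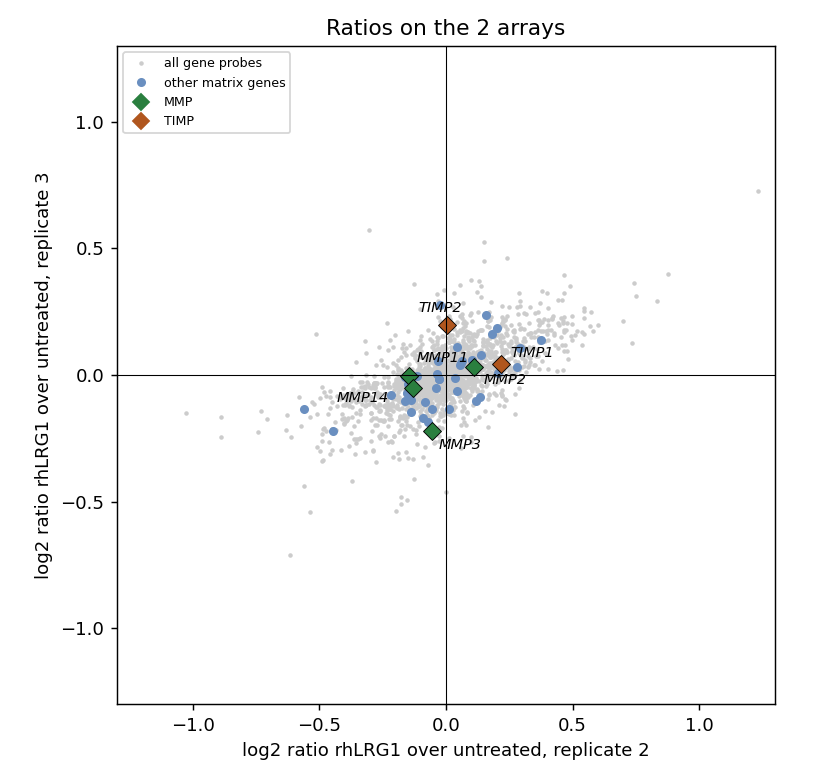
Log2 ratio of rhLRG1 over untreated on replicate 2 (horizontal axis) against replicate 3 (vertical axis) for all 1856 probes (grey), the other matrix genes (blue) and the 6 members (diamonds). The members lie near the origin, TIMP1 and MMP11 closer to the horizontal axis and MMP3 and TIMP2 closer to the vertical one.

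TIMP2 differed more in brightness between the arrays than between the groups. It was 2.82 times as bright on replicate 2 as on replicate 3 in the untreated channel and 2.75 times in the rhLRG1 channel. Its log2 change between arrays of -1.496 and -1.46 lay at percentiles 1.94 and 4.36 of all probes, whose median changes were -0.25 and -0.39. MMP2 went the other way, up by 0.27 in both channels (percentiles 93.5 and 91.6). The log2 change was -0.54 and -1.05 for TIMP1, -0.57 and -0.83 for MMP3, -0.12 and -0.49 for MMP14, and -0.25 and -0.19 for MMP11. Array and culture of a number cannot be told apart, so these are values of the arrays and not of a treatment.

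The brightness of proteases against inhibitors also differed more between arrays than between groups. As a geometric mean over the probes, MMP over TIMP brightness was 0.833 in untreated replicate 2 and 0.645 in rhLRG1 replicate 2. In replicate 3 it was 1.502 in untreated and 1.24 in rhLRG1 cells. The rhLRG1 sample was the lower of each pair, and the groups overlapped, with both values of replicate 3 above both of replicate 2. The dyes were not normalized here, and every member read lower with rhLRG1. MMP14, near its local background when treated, fell by the largest factor, from 159 to 54.9 in replicate 2 and from 146 to 39.0 in replicate 3. The lower values of the rhLRG1 samples thus leaned on this dim probe. These ratios show how the balance of signal varied, and give no ratio of molecules, for the reason of probe binding above.

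Other genes of matrix turnover give the setting of the members. A list of 99 further genes was written from textbook knowledge in 7 groups, and 40 of them were on the array. Of the 40, 2 were called higher and 2 lower by the Z ratio, 10% against 13.4% of all probes. In limma 0 of 40 had an adjusted p under 0.05 and 7 an unadjusted p under 0.05. Their median log2 ratio was -0.012, with 19 above and 21 below 0.

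The remaining MMPs on the array were MMP8, MMP10, MMP16 and MMP17, and 0 of 4 were called. MMP10 (stromelysin 2), the closest relative of MMP3, had ratios of -0.072 on replicate 2 and -0.18 on replicate 3, beside -0.056 and -0.22 for MMP3, and whether the probes read each other's transcripts was not tested. MMP8 (neutrophil collagenase) averaged 0.081, and MMP17, a membrane-type MMP, 0.024 with 0.13 and -0.085 on the arrays. With these, the array carried 8 MMPs and 4 TIMPs.

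Of the further inhibitors 0 of 4 were called. TIMP3, the inhibitor that stays bound to matrix, had the largest ratio of any TIMP, 0.29 and 0.11 on the arrays with a mean of 0.20 (SE 0.069, adjusted p = 0.179 in limma, Z ratio 0.975). TIMP4 averaged -0.021, and TFPI2, a serine protease inhibitor, -0.094. Signs thus differed within the TIMP family, with TIMP1, TIMP2 and TIMP3 above 0 and TIMP4 below under loess, and none passed either test.

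Groups that act around the MMPs held no call. In the plasminogen system (3 of 9 listed genes on the array), which activates several MMP zymogens through plasmin, PLAT (tissue plasminogen activator) averaged 0.11 and SERPINB5 (maspin) -0.13. The metalloproteases of the ADAM families on the array were ADAM17, the sheddase of TNF, at -0.11 and ADAMTS5, an aggrecanase, at -0.096. Among genes for activation or docking, ITGB3, the integrin subunit that can hold MMP2 at the membrane, had -0.024 and 0.28, CD44 -0.094 and the heparanase HPSE -0.0093. ITGB3 was the one among these to change sign between arrays by a wide margin, and on replicate 3 alone its Z ratio was 2.22.

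Of the proteins that MMPs cut or cells adhere to, 3 of 10 were called, beside 13.4% of all probes. SPP1 (osteopontin), an adhesive glycoprotein cleaved by MMP3, was higher with ratios of 0.38 and 0.14 (mean 0.26, SE 0.076, Z ratio 1.62). VTN (vitronectin) was lower at -0.45 and -0.22 (mean -0.33, SE 0.075, Z ratio -2.08), and LAMB1 (laminin subunit beta 1) at -0.56 and -0.13 (mean -0.35, SE 0.11, Z ratio -2.23). Their adjusted p in limma was 0.157, 0.143 and 0.164, so none passed the replicated test. On replicate 3 alone the Z ratios of SPP1 and LAMB1 were 1.12 and -1.03, within the limit, while VTN stayed called. SPP1 also lost its call without background correction (Z ratio 1.07), with plain subtraction (1.23) and on the net intensities (1.26), and VTN with plain subtraction (-1.45).

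**Figure D4:**
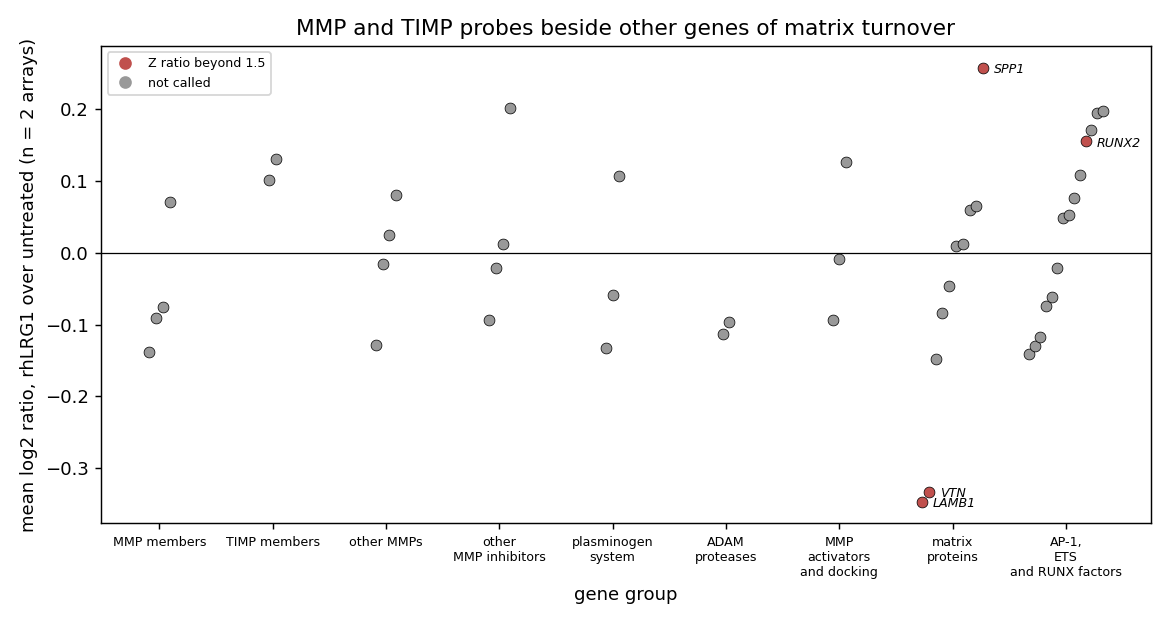
Mean log2 ratio of rhLRG1 over untreated for the 6 members and the 40 other matrix genes, by group (1 point per probe), with genes called by the Z ratio in red. The members lie between -0.14 and 0.13, and VTN and LAMB1 lie lowest at -0.33 and -0.35.

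The direction of a member rested in part on how the dyes were balanced. Without any normalization the median of all probes was -0.31 (-0.42 on replicate 2 and -0.21 on replicate 3), and all 6 members lay below 0, MMP2 at -0.22, TIMP1 at -0.32 and TIMP2 at -0.14. In this setting MMP14 lay farthest below 0 (-0.67, adjusted p = 0.00425 in limma, when 503 probes passed in all), whereas MMP3 did under loess. MMP14 was also the dimmest member in the channel with the higher local background. Under loess its ratio was -0.12 without background correction and -0.20 with plain subtraction. On the net intensities that the authors deposited, MMP3 had an adjusted p of 0.0469 in limma at a ratio of -0.20, when 603 probes passed in all.

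**Figure D5:**
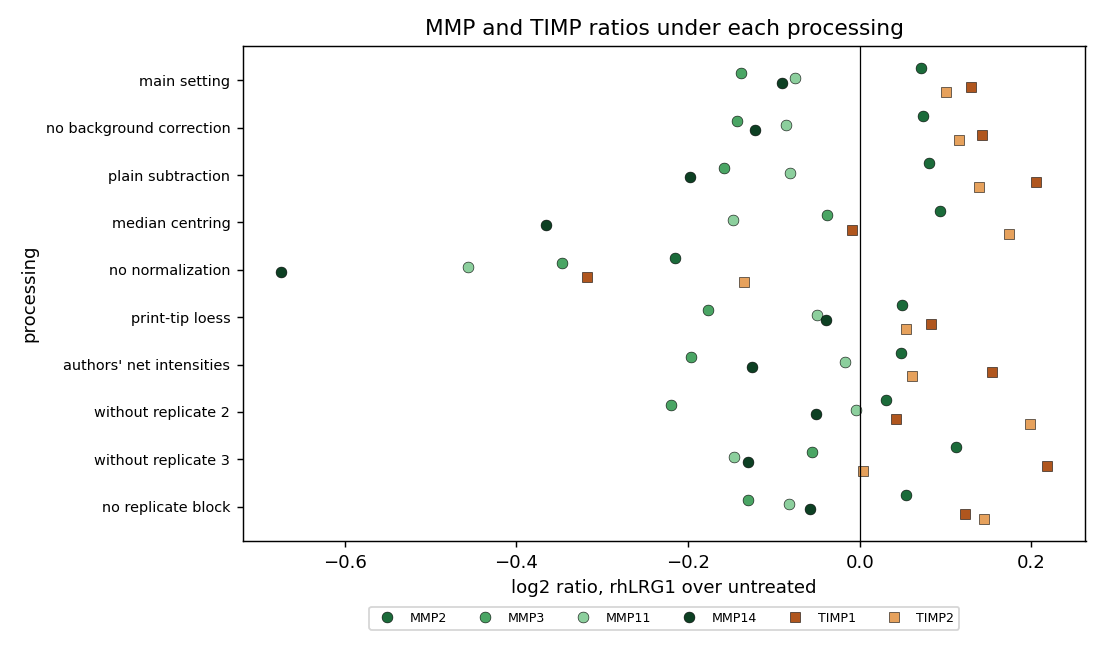
Mean log2 ratio of rhLRG1 over untreated for each member (colours) under each processing alternative that could change it. MMP3, MMP11 and MMP14 are below 0 in every setting shown, while TIMP1 crosses 0 with median centring and MMP2, TIMP1 and TIMP2 do so without normalization.

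The labelled cell type could not be settled from brightness. The 5 basal or mesenchymal markers on the array (VIM, CD44, EGFR, CAV1 and ITGB1) had a median untreated percentile of 74.7, above luminal (55.2), endothelial (38.0), leukocyte (30.5) and fibroblast markers (21.5). The ranges overlapped widely, 6.01 to 96.2 for the basal list and 29.6 to 90.2 for the leukocyte list.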

How the data were processed

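Expression was measured in 4 samples on 2 two-colour arrays, where each pair of equal number shared 1 array. The authors deposited spot intensity, with local background and its SD, and net intensity, from which background had been subtracted. The treated channel of the net intensity had also been adjusted, by a factor that differed between spots. The authors analysed the arrays with genArise. Deposited columns of the authors' own comparison (ratios) were not used, nor were the summary lines after the spots. No alignment or count depth applies, and the precision is limited by the number of arrays.

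The background was corrected with normexp (offset 50) and the dyes were normalized by loess within each array in limma 3.58.1 (R 4.3.3), with the 54 control spots at weight 0. The 2 spots of a probe were averaged and lmFit and eBayes were run on the log2 ratios of all 1856 probes, with Benjamini-Hochberg adjustment. The Z ratio (limit 1.5) followed the study's rule, on the log10 normexp values of each channel before loess. The limma ratios thus rest on dye-normalized values, and the Z ratios on values scaled within each channel. By the Z ratio 248 of 1856 probes were called in the main setting, 238 on loess-normalized channels and 220 on net intensities. The script was tested on simulated data, in which the treated channel was the untreated one with known folds and spot noise. The simulation held no dye effect of single probes and no biological spread between arrays, so it checks the code and not the calls here. Current symbols were matched through RefSeq by accession for 1701 probes, by symbol for 60 and by synonym for 15, and 80 kept the array's name or none.

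All members were named, as were other matrix genes that were called and, of each group with none called, up to 3 with the largest ratio in size, of which 1 is not reported here. The members and lists were chosen with earlier results of these data known. The shared array pairs the samples, and log2 changes between the arrays in the untreated and the rhLRG1 channel correlated at 0.947 across spots. The labels call the samples of a group biological replicates, each grown and harvested on its own. Alternatives were other background corrections and normalizations, net intensities, a filter on dim probes, robust variances and each array alone. A further one was a fit with no replicate block on channels that were also quantile-normalized.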

Additional observations from a re-analysis of the deposited data

How the results depend on the processing

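The count of members called by the Z ratio was 0 in every alternative but 1, and ranged from 0 without replicate 3 to 2 without replicate 2 (MMP3 and TIMP2, when 225 of 1856 probes were called). The main Z ratio was taken before dye normalization, so median centring and no normalization could not change any Z ratio or call. The count with an adjusted p under 0.05 in limma was 0 except for 1 without normalization (MMP14, when 503 probes passed) and 1 on net intensities (MMP3, 603 passed). Over all probes the count rose from 0 to 432 without background correction and to 378 with plain subtraction, with 0 members among them. The mean MMP minus TIMP difference was -0.20 without background correction, -0.26 with plain subtraction, -0.20 with median centring and -0.20 without normalization, -0.12 with print-tip loess, and -0.18 to -0.17 with an array left out. Calls among other matrix genes fell to 2 with plain subtraction (LAMB1 and RUNX2) and were 3 to 4 with an array left out. Signs turned for TIMP1 with median centring (-0.0086) and, without normalization, for MMP2 (-0.22), TIMP1 (-0.32) and TIMP2 (-0.14), where the median of all probes was -0.31. MMP3, MMP11 and MMP14 turned in no alternative, but the shift without normalization was downward and could not turn them. MMP11 came near 0 on net intensities (-0.018) and without replicate 2 (-0.0042). MMP3 did so with median centring (-0.038) and MMP14 with print-tip loess (-0.040).

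With the channels quantile-normalized and fitted as 4 samples with no replicate block, the difference was -0.19. The smallest adjusted p of a member in limma was 1 in place of 0.289, which changed no call. Dropping the block alone would leave the mean difference as it was. The filter on dim probes removed none. One array left gives a value with no test.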

Other observations

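Of 18 listed transcription factors of the AP-1, ETS and RUNX families, 14 were on the array and 1 was called (7.14%, beside 13.4% of all probes). RUNX2, a bone-forming factor that drives MMP13 in cartilage and bone, was higher by the Z ratio (3.16), with log2 ratios of 0.28 on replicate 2 and 0.031 on replicate 3, a mean of 0.16 (SE 0.078) and an adjusted p of 0.299 in limma. RUNX2 had the dimmest probe of the 40 other matrix genes (mean log2 brightness 6.75), and its Z ratio moved widely with the setting. It was 3.75 without replicate 3, 3.76 with plain subtraction and 4.55 without background correction, and it was under the limit without replicate 2 (1.495), on the net intensities (0.952), on loess-normalized channels (1.05) and with print-tip loess (0.632).

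The 6 AP-1 subunits on the array differed in sign, and they were singled out after their values were seen. FOS and JUN had mean ratios of -0.13 and -0.022, below 0 on both arrays, and JUNB had 0.076. FOSB, JUND and FOSL1 had mean ratios of 0.20, 0.19 and 0.17, above 0 on both arrays, with adjusted p of 0.160, 0.153 and 0.177 in limma and Z ratios of 1.18, 1.27 and 1.14, and none of the 6 was called. FOSB passed the limit without replicate 2 (1.65) and with print-tip loess (1.68), and ETV4, an ETS factor, on the net intensities (1.64). The promoter window of TIMP1 held the AP-1-like element, which was searched as a form known from TIMP1, so this match was fixed in advance. The windows of MMP11 and MMP14 held none of the AP-1 forms searched, and TGANTCA matched in no member window. No relation between factor and member was tested.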
